A study of Mus musculus with 10 samples.

Results

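The MHC class II genes and their activator were followed through 4 groups of mouse peritoneal macrophages. The 10 genes were taken by name, as the rows of the count table whose Ensembl identifiers carry the symbols Ciita, Cd74, H2-Aa, H2-Ab1, H2-Eb1, H2-DMa, H2-DMb1, H2-DMb2, H2-Oa and H2-Ob, out of 22165 identifiers in all. The rule used names and no expression value, but the list was chosen with earlier results of these data known. All 10 passed the filter on low counts. RNA sequencing of poly-A RNA gave 10 libraries. The wild-type animals were C57BL/6 mice with 1 floxed gene (fl/fl), which the labels also call WT. The knockout animals carried the same floxed gene together with LysM-Cre, in which the myeloid lysozyme promoter drives the recombinase, so that deletion is directed to macrophages and other myeloid cells and B cells are not its target. Each genotype was studied basal (the protocol names a saline injection into the peritoneum) and after an injection of IL-4 complexed to an anti-IL-4 antibody. The cells were washed out with 5 ml of PBS 36 hours after the injection, stained for CD64, ICAM-2 and CD115, and sorted. There were 2 basal and 3 IL-4 libraries of each genotype. Age and sex of the mice, the sort gates and whether a library came from 1 animal or a pool are not given in the sources used here, so the p-values measure the spread between libraries.

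MHC class II molecules carry peptides from the endosome to the cell surface for recognition by CD4+ T cells. Class II transactivator, the product of Ciita, binds no DNA itself. It is recruited by the RFX, CREB and NF-Y factors that sit on the X and Y boxes of class II promoters, and it switches on the chain genes, the invariant chain gene Cd74 and the H2-DM genes together. Among peritoneal cells, B cells carry class II constantly, dendritic cells and small peritoneal macrophages carry it strongly, and the large peritoneal macrophages that dominate the resting cavity carry little. IL-4 and interferon gamma are both known to raise class II. H2-DM, made of H2-DMa with an H2-DMb chain, loads peptides. H2-O, made of H2-Oa and H2-Ob, restrains H2-DM and is known above all from B cells.

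Of the 10 genes, 7 had their promoter window read from the RefSeq table (build GRCm38.p6, 300 bases, from 250 before to 50 after the gene's start). H2-Ab1 and Ciita are named only. The shared class II boxes are shown here as background. Whether they bear on the changes of the genes was not tested. Letters in capitals mark matches on the gene's strand to the Y box CTGATTGG or its core GATTGG, which lies inside it, to the X1 letters AGNAACNNA, or to the X2 letters TGACG. Both strands were searched. Each stretch of 66 bases runs 5′ to 3′ from 50 bases before the Y core to 10 bases after it.
H2-Eb1: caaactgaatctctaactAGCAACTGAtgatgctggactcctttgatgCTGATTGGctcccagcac
H2-Aa: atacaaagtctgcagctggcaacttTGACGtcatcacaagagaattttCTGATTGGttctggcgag
H2-Oa: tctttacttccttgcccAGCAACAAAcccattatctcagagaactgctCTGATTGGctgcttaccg
H2-Ob: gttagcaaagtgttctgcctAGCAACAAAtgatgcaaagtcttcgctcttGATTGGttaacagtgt
H2-DMb1: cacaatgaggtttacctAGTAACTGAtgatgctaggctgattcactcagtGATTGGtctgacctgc
H2-DMb2: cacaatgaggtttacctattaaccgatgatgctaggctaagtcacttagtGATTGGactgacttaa
The stretches lie at chr17:34305757-34305822, + strand (H2-Eb1), chr17:34287857-34287922, - strand (H2-Aa), chr17:34092285-34092350, + strand (H2-Oa), chr17:34238797-34238862, + strand (H2-Ob), chr17:34153079-34153144, + strand (H2-DMb1) and chr17:34145108-34145173, + strand (H2-DMb2). In these 6 genes the Y core began between 44 bases (H2-Oa) and 91 bases (H2-DMb2) before the start. H2-DMa had a match to the core only at 199 bases before its start and is not shown. The core was in 16.1% of all 32851 windows and the full Y box in 4.10%, while the X1 letters were in 16.9% and the X2 letters in 20.8%. An X1 or X2 match followed by a Y core 15 to 45 bases further on was in 5 of the 7 genes. They were H2-Oa, H2-Ob, H2-DMb1, H2-Eb1 and H2-Aa. The 7 genes had 8 windows in all. Of all windows searched, 0.277% held such a pair. The spacing was chosen after the windows were seen. H2-DMb1 and H2-DMb2 are neighbouring copies of 1 gene, and 57 of the 66 bases shown were identical between them. The X1 letters matched in H2-DMb1 and not in H2-DMb2. These are matches of letters and not measured binding sites.

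The chain, H2-DM and H2-O genes lie together on chromosome 17 (GENCODE M21 on GRCm38): H2-Oa at chr17:34092340-34095234, H2-DMa at chr17:34119541-34139101, H2-DMb2 at chr17:34143307-34151555, H2-DMb1 at chr17:34153072-34160230, H2-Ob at chr17:34238903-34254414, H2-Ab1 at chr17:34257689-34269419, H2-Aa at chr17:34282744-34287823 on the minus strand and H2-Eb1 at chr17:34305867-34316674. Ciita lies at chr16:10480059-10528418. All are protein-coding. Some reads could not be placed with certainty. Of the 50-base stretches in H2-DMb1 transcripts, 22.7% were also in a transcript of another gene, in the main H2-DMb2, and of those in H2-DMb2 25.9% were. H2-Oa shared 15.5% of its stretches with the antisense gene BC051537, H2-DMa 8.43% with Brd2 and Ciita 1.46% with Dexi, each on the other strand. The setting for strand in the counting is not given in the sources used here. H2-Ab1, H2-Eb1, H2-Ob and Cd74 shared none, although the antisense gene Gm20513 overlaps the start of H2-Eb1.

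Library totals ran from 8762403 to 15024073 counts, and 11614 genes were tested. Levels are in CPM, counts scaled by library size. All adjusted p-values below come from edgeR's quasi-likelihood test unless another tool is named.

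B cells carry class II, so a fixed list of B cell markers was read beside every result. Of its 20 genes 17 were in the table and all 17 were tested. Their summed level was 332 and 514 CPM in basal wild type, 737 to 854 CPM in wild type with IL-4, 2136 and 2473 CPM in basal knockout and 829 to 917 CPM in knockout with IL-4. The basal knockout libraries thus stood above every other library in B cell RNA. Cd79a, part of the B cell receptor, ran from 150 to 169 CPM in basal knockout and from 15.5 to 21.5 CPM in basal wild type. No B cell marker was at 0 in any library. In bulk RNA, more cells of a type and more RNA per cell cannot be told apart. The proteins used in the sort (Fcgr1 for CD64, Icam2, and Csf1r for CD115) were present in every library, with summed levels of 593 to 1436 CPM, and Gata6 and the other large peritoneal macrophage markers summed to 9873 to 19451 CPM.

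Ciita was low in basal wild-type macrophages and higher in the other 3 groups, which overlapped. It stood at 6.61 and 11.0 CPM in basal wild type, at 43.5, 38.4 and 41.0 CPM in wild type with IL-4, at 39.5 and 38.4 CPM in basal knockout, and at 83.4, 44.5 and 39.2 CPM in knockout with IL-4. Both basal wild-type libraries lay below all 8 others, and the highest value was replicate 1 of the IL-4 knockout.

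The chain genes and Cd74 shared this low basal wild-type level. Cd74, whose protein chaperones new class II molecules, stood at 75.7 and 119 CPM in basal wild type, 464, 360 and 387 CPM in wild type with IL-4, 350 and 545 CPM in basal knockout and 286, 339 and 404 CPM in knockout with IL-4. H2-Aa, the alpha chain of I-A, stood at 115 and 252, at 706, 517 and 559, at 397 and 503, and at 419, 448 and 346 CPM in the same order of groups. For both genes the wild-type basal libraries lay below all others. H2-Ab1, the beta chain of I-A, stood at 68.4 and 150, at 469, 363 and 409, at 289 and 319, and at 288, 319 and 292 CPM. H2-Eb1, the beta chain of I-E, stood at 67.3 and 122, at 381, 280 and 298, at 281 and 340, and at 242, 248 and 212 CPM. H2-Aa and H2-Ab1 were highest in wild type with IL-4, where every library lay above every library of the other 3 groups, while Cd74 and H2-Eb1 overlapped there with basal knockout.

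The H2-DM genes split. H2-DMa moved little, from 55.0 and 48.3 CPM in basal wild type to 92.2, 70.1 and 93.4 CPM in wild type with IL-4, 73.3 and 71.2 CPM in basal knockout and 98.6, 67.9 and 66.9 CPM in knockout with IL-4. H2-DMb1 stood at 20.9 and 23.7, at 33.4, 33.3 and 33.4, at 28.1 and 29.1, and at 32.5, 39.9 and 25.1 CPM. The 3 later groups overlapped in both genes, apart from H2-DMb1 in basal knockout and in wild type with IL-4. H2-DMb2 stood at 3.59 and 8.99, at 16.1, 12.5 and 14, at 33.3 and 43.4, and at 15.9, 19.2 and 11.1 CPM. Its basal knockout libraries lay above all others, which its neighbour H2-DMb1 did not show.

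The H2-O genes were also highest in basal knockout. H2-Ob stood at 7.55 and 4.02 CPM in basal wild type, 14.1, 8.11 and 12.5 CPM in wild type with IL-4, 37.8 and 46.9 CPM in basal knockout and 10.9, 10.7 and 12.8 CPM in knockout with IL-4. H2-Oa was scarce, at 0.850 and 2.40, at 3.72, 4.05 and 4.22, at 5.95 and 4.74, and at 2.13, 2.99 and 2.0 CPM. In both genes the basal knockout libraries lay above all others. Within basal wild type, replicate 2 lay above replicate 1 in all genes but H2-DMa and H2-Ob, and also in the B cell marker sum.

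**Figure D1:**
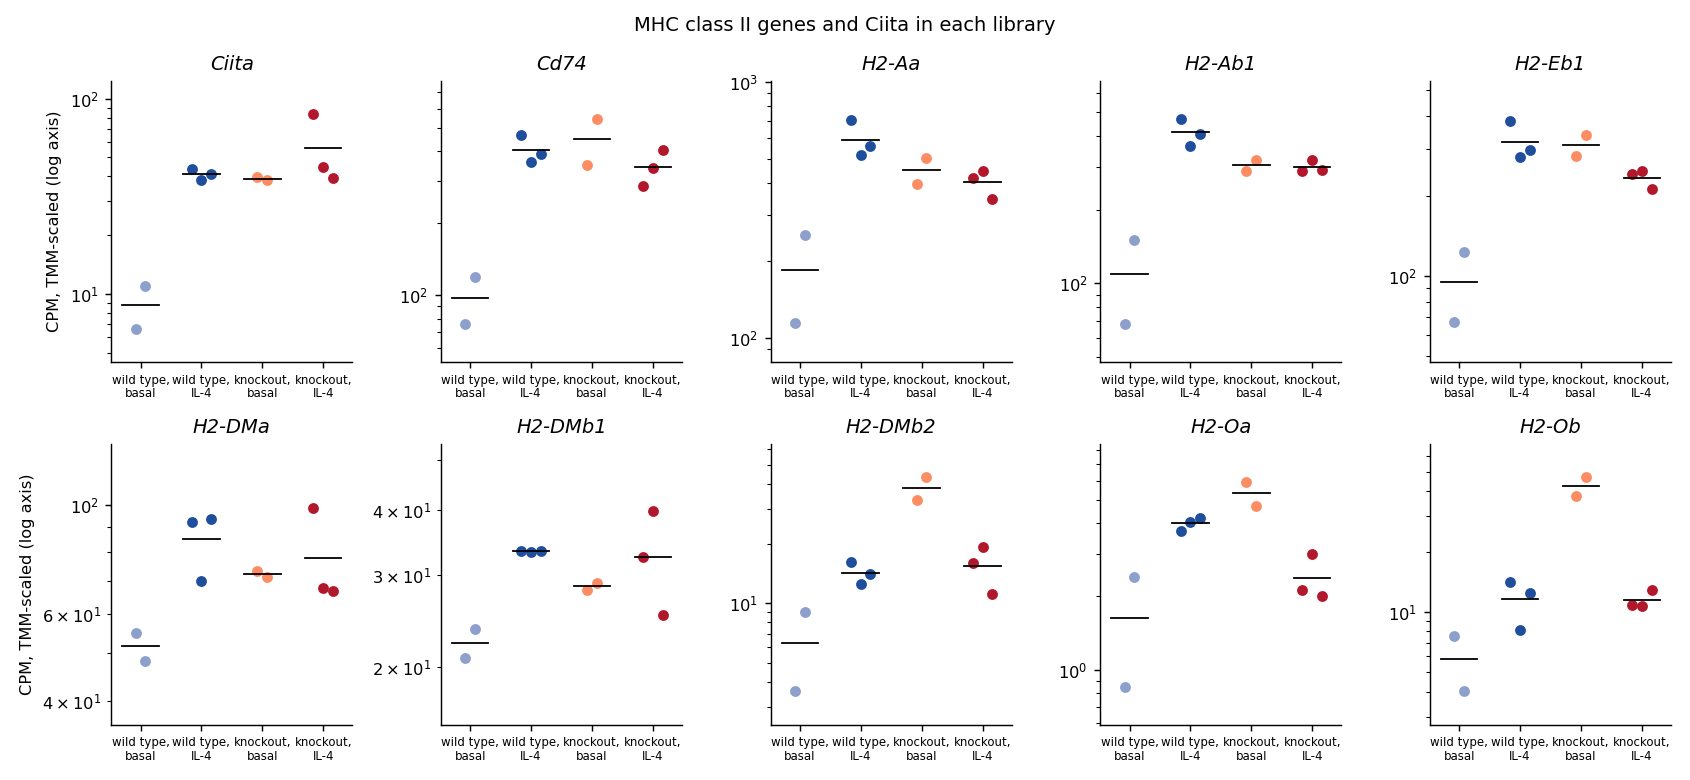
CPM (TMM-scaled, log axis) of each of the 10 genes in every library, by group, 1 point per library and a bar at the group mean. Ciita, Cd74 and the chain genes are low in basal wild type and near one another in the other groups, while H2-DMb2, H2-Oa and H2-Ob peak in basal knockout.

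Levels of different genes were ranked only per kb of exon. In every group the 4 highest were Cd74, H2-Eb1, H2-Aa and H2-Ab1. In basal wild type they stood at 58.0 ± 18.2, 48.8 ± 20.0, 48.3 ± 25.7 and 42.5 ± 22.5 CPM per kb (SD, n = 2) and overlapped one another. In wild type with IL-4, Cd74 at 240 ± 32.2 CPM per kb (SD, n = 3) lay above the 3 chains, whose means ran from 156 to 164 and which overlapped. H2-DMa and H2-DMb1 came next, at 15 ± 1.38 and 13.3 ± 1.2 CPM per kb in basal wild type. The lower places changed with the group. H2-DMb2 was the seventh gene at 3.6 ± 2.19 CPM per kb in basal wild type and the fifth at 21.9 ± 4.08 in basal knockout, where it overlapped H2-DMa. H2-Ob stood at 7.88 ± 1.2 CPM per kb in basal knockout, above Ciita at 4.09 ± 0.075, and at 1.08 ± 0.464 in basal wild type, where H2-Oa, H2-Ob and Ciita overlapped.

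The first comparison sets the libraries labelled basal knockout against those labelled basal wild type, by their labels alone. Ciita was 4.42-fold higher in basal knockout than in basal wild type (log2 2.14 ± 0.37 SE, adjusted p = 0.0029). Cd74 was 4.59-fold higher (log2 2.20 ± 0.29) and the chains H2-Eb1, H2-Ab1 and H2-Aa were 3.27-fold, 2.78-fold and 2.45-fold higher (adjusted p = 0.0023, 0.0105 and 0.0304). The genes with the largest changes were H2-Ob, 7.34-fold higher (log2 2.87 ± 0.38, adjusted p = 4e-04), and H2-DMb2, 6.07-fold higher (log2 2.60 ± 0.41, adjusted p = 0.0015). In all, 7 of 10 genes rose and 0 fell, beside 2.61% of all tested genes that rose and 1.53% that fell. The genes that did not pass were H2-DMa (log2 0.48 ± 0.27), H2-DMb1 (0.36 ± 0.28) and the scarce H2-Oa (1.70 ± 0.59, adjusted p = 0.125). The median log2 change of the 10 genes was 1.71, and that of all tested genes was −0.02. All 10 lay with both knockout libraries above both wild-type libraries, as did 23.7% of tested genes.

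All 17 B cell markers rose in the same comparison, with a median log2 change of 3.14 and a range from 1.56 to 4.17. Pax5, a B cell transcription factor, was 18.1-fold higher, and Siglecg, Ebf1 and Cd79b were 11.9-fold, 11.4-fold and 8.01-fold higher. Some genes on the mast cell, dendritic cell and monocyte lists also moved, and whether their RNA came from those cells was not tested. Of 6 mast cell markers 4 rose (Tpsb2 5.14-fold, Cma1 7.12-fold), with summed levels of 155 to 256 CPM in basal knockout and 26.8 to 27.7 CPM in basal wild type. Of 10 dendritic cell markers Cd209a (3.89-fold), Kmo (6.63-fold) and Ccr7 (5.27-fold) rose and Batf3 fell by 1.39 on the log2 scale. Their summed level was 85.9 to 90.5 CPM against 28.0 to 40.1 CPM. Flt3, on the same list and scarce, overlapped at 1.61 to 1.73 against 0.189 to 1.71 CPM. Of 9 small peritoneal macrophage and monocyte markers tested, Napsa (6.67-fold) and Plac8 (4.73-fold) rose, with sums of 806 to 1044 against 443 to 647 CPM. None of 11 large peritoneal macrophage markers passed. The part of these cell types in the class II difference was not tested.

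Without 1 library at a time, 5 to 7 genes were called. H2-Aa lost its call without replicate 1 of basal knockout (adjusted p = 0.0658), replicate 2 of basal knockout (0.182) or replicate 1 of basal wild type (0.159), in a range of 0.0026 to 0.182, and H2-Ab1 lost it without replicate 2 of basal knockout (0.0626) or replicate 1 of basal wild type (0.0592). With the B cell marker sum as a covariate 0 of 10 genes were called, as were 0 of all 11614 tested genes, so that the count says nothing particular about class II. In that fit, whose slope rests only on differences within groups, 7 of the 10 changed sign (Ciita −0.41 ± 1.70, H2-Eb1 −0.97 ± 1.22 on the log2 scale).

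**Figure D2:**
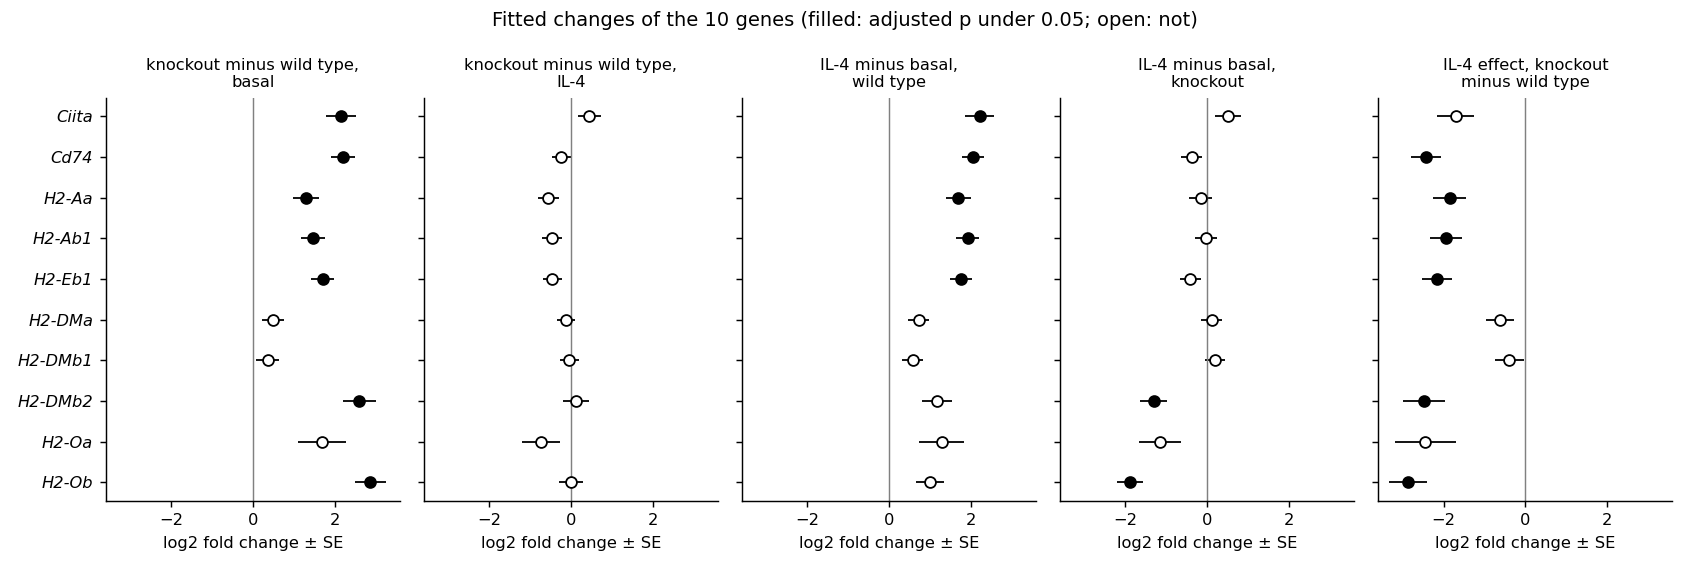
Fitted log2 fold change with its standard error for the 10 genes in the 4 pairwise comparisons and in the difference of the IL-4 effects (edgeR, filled points pass an adjusted p of 0.05). In the first panel 7 genes lie above 0 and pass, and in the last 6 lie below 0 and pass.

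The second comparison asks what IL-4 did to these genes in wild-type macrophages. Ciita rose 4.65-fold (log2 2.22 ± 0.35, adjusted p = 0.0019), Cd74 4.15-fold (2.05 ± 0.28, adjusted p = 6e-04) and H2-Ab1, H2-Eb1 and H2-Aa 3.79-fold, 3.37-fold and 3.24-fold. These 5 of 10 genes rose and 0 fell, beside 3.26% of all tested genes that rose and 2.80% that fell. The H2-DM and H2-O genes had positive changes that did not pass, from 0.58 ± 0.25 for H2-DMb1 to 1.29 ± 0.55 for H2-Oa on the log2 scale, with H2-DMb2 at 1.17 ± 0.37 (adjusted p = 0.0769) and H2-Ob at 1.0 ± 0.34. The median change of the 10 genes was 1.49 and that of all tested genes 0.00. For all 10 the IL-4 libraries lay above the basal ones, as they did for 20.8% of tested genes. All 5 calls held without any 1 library, and leaving out replicate 2 of basal wild type added H2-DMb2 (adjusted p = 0.0262). DESeq2 called H2-DMb2 (adjusted p = 0.0331) and H2-DMa (0.0489) as well, and edgeR called H2-DMb2 with library totals (0.0494) or no filter (0.0179).

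The B cell markers had a median log2 change of 0.91 in this comparison. Of 17 markers 6 rose, among them Ebf1 3.93-fold and Pax5 4.50-fold. Monocyte and small macrophage markers rose in 6 of 9 (Retnla 12.1-fold and Mgl2 17.4-fold, both known targets of IL-4), with a summed level of 4273 to 5513 CPM against 443 to 647 CPM. Neutrophil genes S100a8 and S100a9 rose 3.23-fold and 3.58-fold. Mast cell genes fell, in 3 of 6. Kmo was the 1 of 10 dendritic cell markers that rose (2.66-fold). Of the 3 proteins used in the sort, the RNA of Fcgr1 fell by 1.78 and that of Icam2 by 1.27 on the log2 scale, and the sum of the 3 was 593 to 878 CPM against 1159 to 1436 CPM. Of 11 large peritoneal macrophage markers 2 fell, Icam2 again and Ltbp1 (by 1.07). With the B cell sum as a covariate 0 of 10 class II genes and 34 of all tested genes were called, with Ciita at 1.28 ± 0.72, Cd74 at 1.14 ± 0.55 and H2-Ab1 at 0.78 ± 0.51 on the log2 scale. The part of these other cell types and of the sort proteins in the class II values was not tested.

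In the knockout, IL-4 left Ciita, Cd74 and the chain genes without a change that passed. The log2 changes were 0.51 ± 0.32 for Ciita, −0.38 ± 0.25 for Cd74, −0.15 ± 0.28 for H2-Aa, −0.02 ± 0.27 for H2-Ab1 and −0.41 ± 0.25 for H2-Eb1. H2-Ob fell by 1.88 (SE 0.31, adjusted p = 0.0016) and H2-DMb2 fell by 1.31 (SE 0.34, adjusted p = 0.0281), on the log2 scale. So 2 of 10 fell and 0 rose, beside 3.51% of tested genes that fell and 4.09% that rose, and the median change was −0.27 beside −0.00 for all tested genes. Every IL-4 library lay below every basal library for 4 genes (H2-Eb1, H2-DMb2, H2-Oa and H2-Ob), as for 21.2% of tested genes. H2-DMb2 lost its call without replicate 1 or 2 of basal knockout (adjusted p = 0.0713 and 0.218) or replicate 3 of knockout with IL-4 (0.0893). B cell markers fell in the same comparison, 16 of 17, with a median log2 change of −2.01, as did all 6 mast cell markers. Markers of small peritoneal macrophages and monocytes moved both ways. Of 9 tested, 6 rose (Retnla 26.0-fold, Mgl2 9.64-fold) and 2 fell (Plac8 by 2.14 and Napsa by 2.05 on the log2 scale), with a summed level of 6626 to 9089 CPM against 806 to 1044 CPM. Of 10 dendritic cell markers Batf3 rose 3.65-fold and Ccr7 fell by 2.95 on the log2 scale, with sums of 62.5 to 66.3 against 85.9 to 90.5 CPM. Fcgr1 fell by 1.29 on the log2 scale, and the large macrophage marker Cd5l rose 2.21-fold. The part of these cell types in the class II values was not tested. With the B cell sum as a covariate 0 class II genes and 12 of all tested genes were called, H2-Ob stood at −3.51 ± 1.02 and H2-DMb2 at 0.77 ± 1.07.

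For 6 of the genes the effect of IL-4 differed between the genotypes. The difference (the log2 change in knockout minus that in wild type) was −2.44 ± 0.37 for Cd74 (adjusted p = 0.0020), −2.16 ± 0.36 for H2-Eb1, −1.94 ± 0.38 for H2-Ab1 and −1.85 ± 0.40 for H2-Aa. It was −2.88 ± 0.47 for H2-Ob (adjusted p = 0.0031) and −2.48 ± 0.51 for H2-DMb2. These 6 of 10 genes passed on the negative side and 0 on the positive, beside 1.78% and 1.02% of all tested genes, with a median of −2.05 beside 0.01. Ciita, at −1.70 ± 0.46, missed (adjusted p = 0.0583). It passed without replicate 1 of knockout with IL-4, its highest library (adjusted p = 0.0058), and without replicate 2 of basal wild type (0.0491), in a range of 0.0058 to 0.178 over the libraries left out. DESeq2 also called Ciita (adjusted p = 0.0164) and H2-Oa (0.0338), and edgeR called Ciita with library totals (0.023) or no filter (0.0031). H2-Aa lost its call without replicate 2 of basal knockout (0.0907) or replicate 1 of wild type with IL-4 (0.0619), and H2-DMb2 without replicate 2 of basal knockout (0.0587). For the B cell markers the difference had a median of −3.26, and 16 of 17 passed. Other lists also had members on the negative side, 3 of 9 small macrophage and monocyte markers (Napsa −2.99, Plac8 −2.33, Clec10a −2.31), 2 of 10 dendritic cell markers (Ccr7 −3.20, Kmo −2.17), 2 of 6 mast cell markers and 2 of 4 neutrophil genes. The dendritic cell marker Batf3 passed on the positive side (2.19). The part of these cell types in the difference was not tested. All 10 libraries feed both this difference and the comparisons above, so it is no separate evidence for them. With the B cell sum as a covariate 0 of all tested genes were called and the difference was −0.10 ± 1.24 for Cd74, 0.67 ± 1.61 for Ciita and −5.65 ± 1.73 for H2-Ob.

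After IL-4 no class II gene passed between knockout and wild type. By edgeR 0 of 10 were called, with 1 (H2-Aa, unadjusted p = 0.0438) at an unadjusted p under 0.05, and DESeq2 also called 0. Over all tested genes 0.353% rose and 0.474% fell, so a count of 0 among 10 is near the background. The log2 differences ran from −0.74 ± 0.47 for H2-Oa to 0.44 ± 0.28 for Ciita, with the chains at −0.55 ± 0.25 (H2-Aa), −0.47 ± 0.24 (H2-Ab1) and −0.45 ± 0.23 (H2-Eb1). H2-Aa, H2-Ab1, H2-Eb1 and H2-Oa were lower in every knockout library than in every wild-type library, 4 of 10, as were 10.7% of tested genes. The median difference was −0.18 beside 0.02 for all tested genes. B cell marker sums overlapped between these groups and 0 of 17 markers passed (1 at an unadjusted p under 0.05).

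Set against the B cell marker sum of the same library, the genes took different courses. H2-Ob, H2-DMb2 and the scarce H2-Oa had ratios that overlapped between basal knockout and basal wild type. For H2-Oa they were 0.00192 to 0.00278 and 0.00256 to 0.00466 of the sum. The basal wild-type values of H2-Ob lay far apart, so its overlap says little. In the knockout the H2-Ob ratio was lower with IL-4 than basal, without overlap. H2-Ob was 0.00783 to 0.0227 of the sum in basal wild type, 0.00949 to 0.0179 in wild type with IL-4, 0.0177 to 0.0190 in basal knockout and 0.0118 to 0.0142 in knockout with IL-4. H2-DMb2 was 0.0108 to 0.0175, 0.0146 to 0.0203, 0.0156 to 0.0175 and 0.0124 to 0.0232 of the sum in the same order. The chain genes had another course. The summed chains (H2-Aa, H2-Ab1 and H2-Eb1) were 0.753 and 1.02 times the sum in basal wild type, 1.36 to 1.97 times in wild type with IL-4, 0.453 and 0.470 times in basal knockout and 0.944 to 1.22 times in knockout with IL-4. Per unit of B cell RNA the chains were thus lower, not higher, in basal knockout than in basal wild type. Cd74 was also lower there (0.164 to 0.220 against 0.228 to 0.231). The same held for H2-DMa (0.0288 to 0.0343 against 0.0940 to 0.166) and H2-DMb1 (0.0117 to 0.0132 against 0.0461 to 0.0627). Ciita was 0.0199 and 0.0213 of the sum in basal wild type and 0.0185 and 0.0155 in basal knockout, against 0.0450 to 0.0556 and 0.0435 to 0.0909 with IL-4 in wild type and knockout. Against Cd79a alone, Ciita was 0.427 and 0.510 in basal wild type and 0.264 and 0.228 in basal knockout. With IL-4 it was 0.977 to 1.43 in wild type and 1.12 to 3.64 in knockout. The size of the basal gap thus depended on the marker used. These ratios carry no test, and the same libraries fed both terms.

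**Figure D3:**
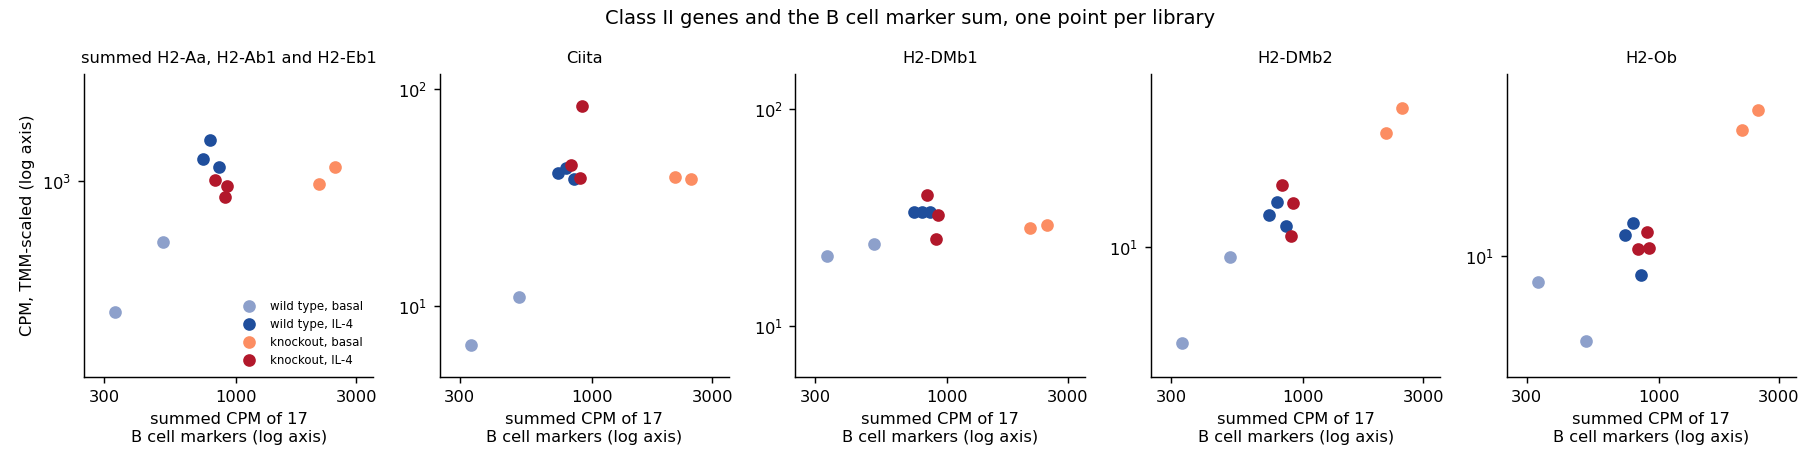
CPM of the summed chain genes, Ciita, H2-DMb1, H2-DMb2 and H2-Ob against the summed CPM of 17 B cell markers, both on log axes, 1 point per library. H2-DMb2 and H2-Ob climb to the basal knockout libraries on the right, while the chain genes, Ciita and H2-DMb1 overlap with or lie below the IL-4 libraries there.

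Ratios among the class II genes do not depend on library scaling. They are ratios of CPM without correction for exon length, so they are compared between libraries and do not rank the genes. H2-DMb2 was 1.18 and 1.49 times H2-DMb1 (CPM) in basal knockout, 0.172 and 0.379 times in basal wild type, 0.375 to 0.481 times in wild type with IL-4 and 0.443 to 0.491 times in knockout with IL-4. The H2-O genes summed to 0.325 and 0.360 times the H2-DM genes in basal knockout and to 0.0793 to 0.144 times in all other libraries. The basal knockout libraries thus stood apart from the other 8 in this ratio of summed RNA of H2-O, the inhibitor, to H2-DM, the peptide editor. Most of the H2-O sum there was H2-Ob (mean 42.4 CPM, beside 5.34 CPM for H2-Oa). H2-Oa did not pass between the basal groups, so the ratio speaks mainly for the H2-Ob chain. The chains were 37.9 and 47.9 times Ciita in basal wild type, 30.2 to 35.8 times in wild type with IL-4, 24.5 and 30.2 times in basal knockout, and 11.4 to 22.8 times in knockout with IL-4, the lowest value being replicate 1, which had the highest Ciita. Cd74 was 0.227 to 0.476 times the summed chains in all libraries.

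**Figure D4:**
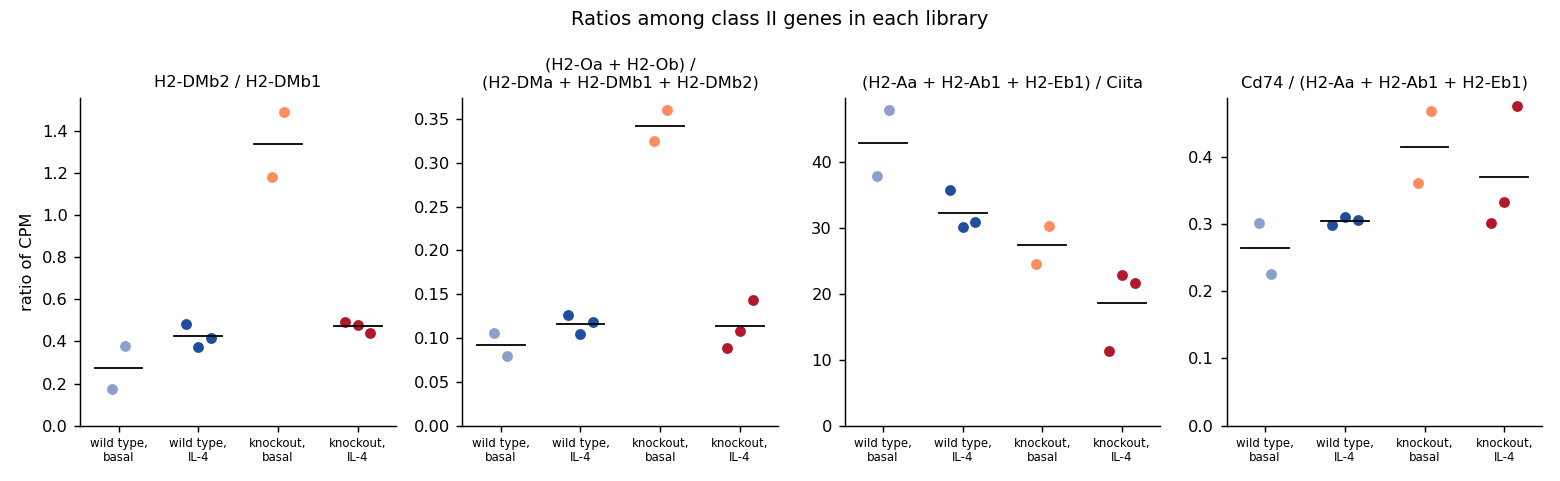
Ratios of CPM between class II genes in each library, by group, with a bar at the group mean. The basal knockout libraries stand apart in the ratio of H2-DMb2 to H2-DMb1 (1.18 and 1.49) and of H2-O to H2-DM (0.325 and 0.360), and the chains per Ciita are lowest in knockout with IL-4.

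H2-Eb2, a further class II beta gene, was the only one of the other class II loci in the list (H2-Ea, H2-Ea-ps and H2-Eb2) that was analysed here. It had 0 counts in both basal wild-type libraries, 36 in wild type with IL-4, 79 in basal knockout and 76 in knockout with IL-4. Against a floor of 3 counts over the basal wild-type group, its mean level was 29.5-fold higher in basal knockout and 7.54-fold higher in wild type with IL-4. In single libraries it ran from 2.92 to 4.65 CPM in basal knockout and from 0.676 to 1.20 CPM in wild type with IL-4.

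Genes that act on Ciita or on the class II protein were read from fixed lists. Of the 7 RFX, NF-Y and CREB genes, whose proteins occupy the boxes shown above, 0 passed in any of the 5 comparisons, with 0 to 2 at an unadjusted p under 0.05. Since 0.353% to 4.09% of all tested genes passed in a given direction, a count of 0 among 7 is near the background. Nfya had the smallest p in basal knockout against wild type (log2 1.22 ± 0.43, adjusted p = 0.134) and Rfxank with IL-4 in wild type (−0.99 ± 0.33, adjusted p = 0.0902). Of 14 tested regulators (interferon gamma, IL-4 and lineage factors), Prdm1, whose protein represses Ciita, was the only one to rise in basal knockout and in wild type with IL-4. It had 0 counts in basal wild type, so no fold change is exact. Its mean levels of 3.86 and 2.97 CPM were 30.1 and 23.1 times a floor of 3 counts over the basal wild-type group. In single libraries it ran from 2.41 to 5.30 CPM in basal knockout and from 1.52 to 4.19 CPM in wild type with IL-4. The list's median log2 change was 0.28 and 0.29 in those comparisons, also with Prdm1 set at these values over the floor. In the difference of IL-4 effects Prdm1 passed on the negative side and the other 13 did not. In knockout with IL-4 against basal knockout, Spi1 rose 1.73-fold and Stat6 1.79-fold, and Irf8, shared by B cells and myeloid cells, fell by 0.99 on the log2 scale (adjusted p = 0.0062). Between genotypes after IL-4 none of these regulators passed, and Irf4 stood at 28.2 to 30.4 against 13.4 to 18.3 CPM (log2 0.87 ± 0.24, adjusted p = 0.106). Ifng had counts in 1 library only, of wild type with IL-4 (4 counts, 0.412 CPM).

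Among 11 endosomal genes (proteases and the reductase Ifi30), Ctse (cathepsin E) alone passed, and in 4 of the 5 comparisons. It stood at 44.6 and 65.9 CPM in basal wild type, 56.2 to 62.7 CPM in wild type with IL-4, 19.6 and 28.5 CPM in basal knockout and 115 to 179 CPM in knockout with IL-4. Its course across the groups was thus unlike that of the chain genes. In basal knockout it was below basal wild type (log2 −1.20 ± 0.30, adjusted p = 0.036), and after IL-4 it was 2.37-fold above wild type (adjusted p = 0.0228). Of the 6 genes for class II turnover and Cd74 partners, Cd83, whose protein stabilises surface class II, rose 4.55-fold in basal knockout (adjusted p = 0.0207). Cd44, the signalling partner of Cd74, rose 1.81-fold in basal knockout and 1.75-fold with IL-4 in wild type, and its IL-4 effects differed by −1.30 ± 0.28 between genotypes (adjusted p = 0.018). None of these 6 passed between genotypes after IL-4 or with IL-4 in the knockout.

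Outside the class II locus, the genes whose log2 CPM most resembled the mean of Cd74, H2-Aa, H2-Ab1 and H2-Eb1 over the 10 libraries were Stambpl1 (Pearson r = 0.963), Jaml (0.959), Sema4d (0.956), Prkar2a (0.951), D230025D16Rik (0.948), Qrich1 (0.942), Ctnnd2 (0.941), Cxcr4 (0.936), Umad1 (0.932) and Gramd2 (0.930). Of the class II genes outside that mean, Ciita reached 0.872 and H2-Ob 0.533. For Ciita they were Nup214 (0.979), D230025D16Rik (0.960), Kctd12 (0.957), Zmiz1 (0.956) and Nek2 (0.953). These values describe 10 libraries that share 4 groups, and the low end of each is held by the 2 basal wild-type libraries. Sema4d, for example, stood at a mean of 1.38 CPM in basal wild type and at 9.28, 8.67 and 5.59 CPM in wild type with IL-4, basal knockout and knockout with IL-4.

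The other marker lists bear on purity. T and NK cell markers (8 in the table, 6 tested) summed to 2.96 to 13.1 CPM and 0 passed in any comparison. Mesothelial markers summed to at most 0.961 CPM, with Msln, Upk3b, Wt1 and Krt19 at 0 in every library. Neutrophil genes summed to 12.9 to 81.9 CPM, and S100a8 and S100a9 were lower in knockout than in wild type after IL-4 (log2 −1.58 and −2.04). After IL-4, Clec10a fell by 1.70 on the log2 scale in knockout against wild type and Retnla rose 1.92-fold, both in the small macrophage list, whose sums were 6626 to 9089 against 4273 to 5513 CPM. The large macrophage list had 1 riser in that comparison, Selp at 2.28-fold. Dendritic cell sums were 62.5 to 66.3 CPM in knockout with IL-4 and 45.3 to 47.4 CPM in wild type with IL-4, with 0 of 10 markers passing. Their part in the class II values was not tested.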

How the data were processed

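The authors deposited 1 table of raw read counts per gene (22165 Ensembl identifiers, 10 libraries). Per the submitters' processing notes, STAR, HTSeq and the build mm10 were used; versions, read filters and the strand setting are not given in the sources used here. Symbols came from GENCODE M21, which named 21822 identifiers; 7409 had 0 counts in all libraries. Groups and replicate numbers came from the sample titles. From the deposited counts, edgeR 4.0.16 (R 4.3.3) kept genes by filterByExpr (minimum count 10, minimum total 15), scaled libraries by TMM, and fitted 4 group means with a robust quasi-likelihood model (common biological coefficient of variation 28.4%, 6 residual degrees of freedom). Tests were two-sided, with Benjamini-Hochberg adjustment over all 11614 genes and a threshold of 0.05. CPM used TMM-scaled totals, and CPM per kb the exon length. The fit was tested on simulated data.

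The members and all gene lists were chosen with earlier results of these data known. Named genes were all members, from each list at most 4 genes that passed in a comparison, taken by smallest p (where none passed, at most 2, as values), and the 10 and 5 genes most like the chain genes with Cd74 and like Ciita. H2-Eb2 and some markers are given with levels only. Alternatives were library totals, RLE factors, DESeq2 1.42.0, no filter, only the groups compared, the replicate number as a block, the B cell marker sum as a covariate and each library left out. Immunoglobulin genes of the B cell list (Ighm, Ighd, Igkc) were not analysed here. The deleted gene and 1 B cell marker are not reported here. Depth limits H2-Oa most, at under 6 CPM in every library. With 2 libraries in a basal group, precision rests on the spread shared by all groups. No promoter or other sequence of chromosome 18 was used.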

Additional observations from a re-analysis of the deposited data

Results flagged for a closer look

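For 6 of the class II genes the effect of IL-4 in knockout differed from that in wild type by edgeR's test of the difference itself. The log2 change in knockout minus that in wild type was −2.44 for Cd74, −1.85 for H2-Aa, −1.94 for H2-Ab1, −2.16 for H2-Eb1, −2.48 for H2-DMb2 and −2.88 for H2-Ob, with 6 of 6 negative. For Cd74, H2-Aa, H2-Ab1 and H2-Eb1 the wild type rose and no change passed in the knockout, while H2-DMb2 and H2-Ob fell in the knockout. The same difference had a median of −3.26 over 17 B cell markers, 16 of which passed. On the same side passed 3 of 9 small macrophage and monocyte markers, 2 of 10 dendritic cell markers (1 passed on the other), 2 of 6 mast cell markers and 2 of 4 neutrophil genes. The part of these cells in the class II values was not tested.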

How the results depend on the processing

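Of 840 alternative values of single genes (10 genes), 772 kept their direction and their side of the threshold, 22 kept the direction and lost the call, 11 gained one and 35 changed sign. The largest shifts came with the B cell marker sum as a covariate, a fit with 5 residual degrees of freedom whose slope rests on differences within groups. It called 0 of the class II genes in each comparison, against 7 (knockout against wild type, basal), 5 (IL-4 in wild type), 2 (IL-4 in knockout) and 6 (difference of IL-4 effects). Over all tested genes it called 0, 34, 12 and 0. The signs it turned, on the log2 scale, were −0.41 (Ciita), −0.29 (Cd74), −2.17 (H2-Aa), −1.72 (H2-Ab1), −0.97 (H2-Eb1), −0.97 (H2-DMb2) and −1.41 (H2-Oa) in basal knockout against wild type. They were −0.10 (H2-DMb2) and 0.19 (H2-Ob) between genotypes after IL-4, and −0.10 (H2-DMb2) with IL-4 in wild type. With IL-4 in knockout they were 1.04 (Cd74), 1.85 (H2-Aa), 1.83 (H2-Ab1), 1.13 (H2-Eb1), −0.30 (H2-DMa), 0.77 (H2-DMb2) and 0.65 (H2-Oa). For the difference of IL-4 effects they were 0.67 (Ciita), 1.39 (H2-Aa), 1.05 (H2-Ab1), 0.35 (H2-Eb1), 0.87 (H2-DMb2) and 0.47 (H2-Oa). None of these passed. In basal knockout against wild type their standard errors ran from 1.22 (H2-Eb1) to 2.90 (H2-Oa), against 0.28 and 0.59 in the main fit. The marker sum itself lay apart between the basal groups, so this fit says little about the signs there. The cause of the turned signs was not tested.

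Leaving out 1 library at a time, the class II genes called ranged from 5 to 7 (basal), 5 to 6 (IL-4 in wild type), 1 to 2 (IL-4 in knockout) and 4 to 7 (difference), and stayed at 0 between genotypes after IL-4. All genes called ranged from 208 to 550, 21 to 129, 302 to 764, 327 to 931 and 182 to 397, against 481, 96, 704, 883 and 326. Some uncalled values changed sign. After IL-4 the ranges were −0.213 to 0.117 (H2-DMb1), −0.070 to 0.310 (H2-DMb2) and −0.212 to 0.165 (H2-Ob). With IL-4 in knockout they were −0.314 to 0.027 (H2-Aa), −0.0903 to 0.054 (H2-Ab1) and −0.110 to 0.203 (H2-DMa). H2-Ob after IL-4 (−0.0063) was also 0.0103 with RLE factors, 0.0104 with DESeq2 and 0.0163 with the replicate block. DESeq2 called 895, 396, 1185, 1371 and 623 genes and no filter 1034, 505, 1209, 1423 and 819. Fitted on the basal libraries alone, H2-Aa missed (adjusted p = 0.0692). Library totals moved the median of all genes to 0.13 (basal), −0.10 (IL-4 in knockout) and −0.17 (difference), and turned no class II gene. Replicate numbers did not pair libraries (13 same-numbered pairs, correlations −0.110 to 0.062, 0 of 6 IL-4 libraries closest to their own number). With the replicate block 1 class II gene was called with IL-4 in knockout (H2-DMb2 missed, adjusted p = 0.0653) and 554 genes in all, and no other class II call changed.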
